A study of Danio rerio with 16 samples.

Results

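Cells sorted as lateral hypothalamic were compared with the remaining brain cells of the same zebrafish line. Of the 16 libraries of the study 8 belong to this comparison, chosen by their labels: 4 libraries of GCaMP6s-positive cells, labelled LH, and 4 of GCaMP6s-negative cells, labelled non-LH. All 8 came from fish carrying Tg(76A:Gal4FF:UAS:GCaMP6s), in which the Gal4FF driver 76A switches on the calcium indicator GCaMP6s, and the labels name no other allele and no treatment in either group. Each library was made from 8 pooled whole brains of fish aged 1 month, dissociated with papain and separated by fluorescence. The sort was therefore set by the driver and not by dissection: LH holds whatever cells of the brain the driver labels, and non-LH holds the unlabelled cells of the whole brain.

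The lateral hypothalamus is a ventral forebrain region that weighs signals of hunger and satiety and drives food seeking, and in zebrafish larvae its neurons are known to be active while the animal feeds. In mammals it holds glutamatergic and GABAergic projection neurons and the cells that make hypocretin and melanin-concentrating hormone. Growth hormone and tachykinins are named beside feeding in the title of the series. Neurons of adult brain circuits carry the enzymes, receptors and scaffolds of excitatory synapses, whereas precursor cells carry cell cycle, Notch and proneural genes; the gene lists below follow these functions.

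Poly(A) RNA was counted per gene. Values are CPM, counts set relative to the library total after scaling with trimmed mean of M values (TMM) factors, listed in the order of replicates 1 to 4, and values after ± are the SD of 4 libraries unless marked SE. Libraries held 33040525 to 39562027 counts in LH and 37149967 to 44940561 in non-LH, and 19376 to 19985 genes in LH and 20522 to 20958 in non-LH had at least 1 count. Pairs of libraries correlated across genes at a median r of 0.842 within LH, 0.887 within non-LH and 0.808 between the groups (log2 CPM). The first principal component held 32.7% of the variance and separated the groups. The second held 16.2% and spread the LH libraries to both sides of non-LH, with LH replicate 4 farthest out. Its scores were 65.4, 88.7, 22.7 and -142 in LH replicates 1 to 4 and -11.1 to -4.02 in non-LH. Because these are bulk samples, fewer cells of a type and less RNA per cell cannot be told apart. The labels call the 4 pools of a group biological replicates, so the p-values measure the spread between pools.

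The precursor genes of the best known lateral hypothalamic peptides, hypocretin and melanin-concentrating hormone, were at or near 0 in LH, as was agrp. hcrt, which encodes hypocretin, had 19, 0, 0 and 23 counts in LH and 0, 0, 0 and 38 in non-LH. pmch, a melanin-concentrating hormone gene, had 0, 0, 0 and 2 counts in LH and 0, 466, 874 and 829 in non-LH, and agrp, of hunger neurons, had 0 in each LH library and 12 in 1 non-LH library. hcrt and agrp were thus at or near 0 in both groups. None of the 3 genes had enough libraries with counts to be tested.

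Markers of other cell types were not spread evenly over the LH libraries. Oligodendrocyte markers, 21 genes of myelin-forming cells, took 1.14%, 1.47%, 0.341% and 0.240% of the counts in LH replicates 1 to 4, against 1.18% to 1.55% in non-LH. The myelin proteolipid gene plp1b was at 6432, 8161, 1292 and 849.7 CPM in LH and 5755, 5886, 8044 and 6517 CPM in non-LH, so that LH replicates 1 and 2 stood at the non-LH level and replicates 3 and 4 well below it. Microglia and macrophage markers, 35 genes in the table, took 0.426%, 0.427%, 0.964% and 0.629% in LH and 0.288% to 0.392% in non-LH, above non-LH in each LH library. Radial glia and astroglia markers took 0.622% to 1.09% in LH and 0.472% to 0.893% in non-LH, and endothelial and mural markers 0.0272% to 0.0380% and 0.0379% to 0.0518%. Erythrocyte markers took 0.0144% to 0.0280% and 0.259% to 0.349%, and were lower in each LH library. No oligodendrocyte marker was at 0 in a whole group. The microglial complement genes c1qa and c1qb were at 0 in both groups, and mpeg1.2 and coro1a in non-LH. The endothelial receptor genes flt1 and kdrl were at 0 in all LH libraries, flt1 in non-LH too. The part of these cell types in the results below was not tested, but counts of genes are also given without LH replicate 4, and without LH replicates 1 and 2, where either moves them by over 1.5 times.

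**Figure D1:**
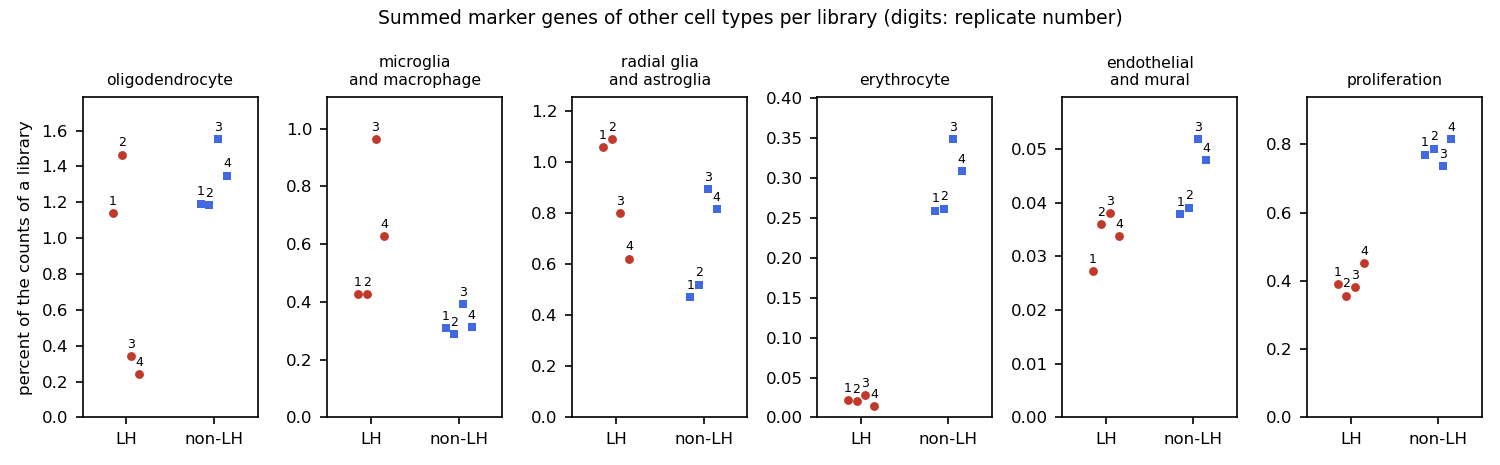
Share of the counts of each library taken by marker lists of other cell types and of dividing cells, in percent, with 1 point per library and its replicate number beside it (circles LH, squares non-LH; each panel has its own axis from 0). LH replicates 1 and 2 sit at 1.14% and 1.47% for oligodendrocyte markers and replicates 3 and 4 at 0.341% and 0.240%, while the erythrocyte panel separates the groups entirely.

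Of 18640 genes tested, 1337 were higher and 1165 lower in LH (adjusted p below 0.05, edgeR quasi-likelihood test), which is 13.4% of the genes, 7.17% higher and 6.25% lower. The shares of higher and lower genes are the reference for the counts of rises and falls per list below. The median log2 fold change of all genes tested was -0.012. Of the genes past the threshold 2428 had groups that did not overlap, and over all genes tested 4110 (22%) did not overlap. Changes of at least 4-fold were fitted for 285 of the higher and 296 of the lower genes. The count depended on the libraries in the model: with the 8 libraries of the caudal hypothalamic line added, which then share the estimate of the spread, 338 genes passed, 335 of them among the 2502, and 71 of the 203 genes past the threshold that are named here passed. Of the 138 counts of rises or falls over the 69 gene lists below, 114 moved by over 1.5 times with those libraries added and 107 in a test against a fold of 2. Leaving out a single library gave 1879 to 2291 genes. Without LH replicate 4 the split was 1114 higher and 1146 lower, and without LH replicates 1 and 2 it was 1029 and 1137, with 1646 of the genes shared.

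**Figure D2:**
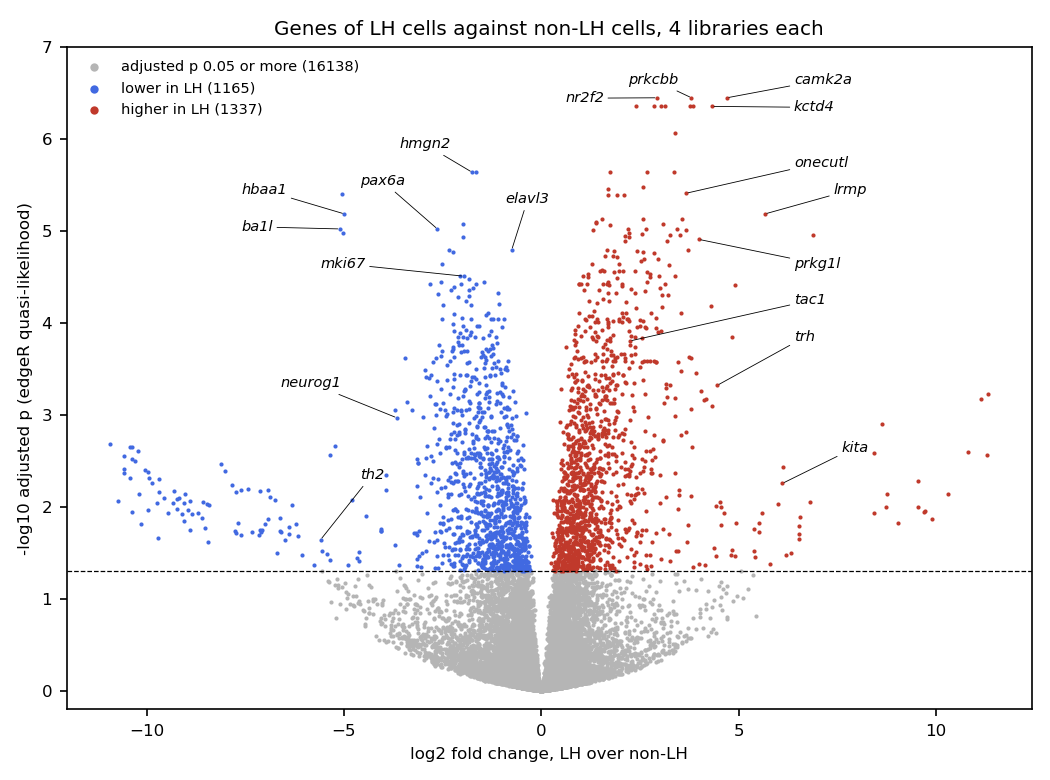
Each point is a gene: log2 fold change of LH over non-LH on the x axis, and -log10 of the adjusted p of the edgeR test on the y axis, with the dashed line at 0.05. Kinase and synapse genes such as camk2a and prkcbb lie at the upper right, and globin, chromatin and patterning genes such as hbaa1, hmgn2 and pax6a at the upper left.

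The 8 raised genes with the smallest p included kinases, glutamate receptors and transcription factors. They and the most raised and most lowered genes below were picked among genes with groups that did not overlap. The absence of overlap in them is therefore no separate result. camk2a, the alpha subunit of the calcium/calmodulin-dependent kinase CaMKII that is abundant at excitatory synapses, was at 1309, 1571, 1465 and 1554 CPM in LH and 63.3, 42.3, 56.0 and 65.1 CPM in non-LH. No library of either group came near the other group (log2 fold change 4.70 ± 0.15 SE, adjusted p = 3.57e-07). prkcbb, a beta isoform of protein kinase C, was at 1819, 1579.9, 1532 and 1625 CPM in LH and 143, 115, 99.1 and 111 CPM in non-LH, again with a wide gap (log2 fold change 3.80 ± 0.13 SE, adjusted p = 3.57e-07). nr2f2, an orphan nuclear receptor of the COUP-TF family that patterns the forebrain, was at 1463, 1386, 1173 and 1407 CPM in LH and 175, 197, 163 and 177 CPM in non-LH. The groups of nr2f2 did not overlap (log2 fold change 2.93 ± 0.10 SE, adjusted p = 3.57e-07). kctd4, a gene of the potassium channel tetramerisation domain family, was at 1377, 1136, 1226 and 1205 CPM in LH and 45.3, 58.4, 67.7 and 75.3 CPM in non-LH. Its lowest LH library lay far above its highest non-LH library (log2 fold change 4.32 ± 0.16 SE, adjusted p = 4.42e-07). The other genes with the smallest p among those raised were grin1a, shox2, nrgna and grm5a, described with their groups.

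The largest rises fell on genes that were close to 0 in non-LH. lrmp, which encodes an endoplasmic reticulum membrane protein first described in lymphoid cells, was at 83.9, 109.6, 124 and 120.1 CPM in LH and 2.99, 1.22, 2.60 and 1.78 CPM in non-LH. lrmp set the groups apart without overlap (log2 fold change 5.67 ± 0.32 SE, adjusted p = 6.53e-06). kita, a Kit receptor tyrosine kinase gene, was at 61.1, 54.7, 46.5 and 35.3 CPM in LH and 0, 1.52, 1.32 and 0 CPM in non-LH, at 0 in non-LH replicates 1 and 4 (log2 fold change 6.11 ± 1.13 SE, adjusted p = 0.00557). pnck, a calcium/calmodulin-dependent kinase gene, was at 49.1, 50.7, 30.9 and 36.6 CPM in LH and 1.02, 0.0497, 0 and 1.36 CPM in non-LH. The groups of pnck did not overlap (log2 fold change 6.11 ± 1.04 SE, adjusted p = 0.0037). These 3 genes were high in each LH library and near or at 0 in each non-LH library. slc1a6, the glutamate transporter that in mammals marks cerebellar Purkinje cells, was at 59.5, 65.3, 56.5 and 126 CPM in LH and 0, 0.274, 4.34 and 0.157 CPM in non-LH, and LH replicate 4 stood above the other LH libraries (log2 fold change 5.99 ± 1.22 SE, adjusted p = 0.00929). Also among the 12 most raised genes were kcng1 (log2 fold change 4.83), a modulatory potassium channel subunit, the carboxylesterase gene ces2 (6.53), the mesoderm bHLH gene msgn1 (5.52), the vasorin gene vasnb (4.93) and the tektin gene tekt4 (5.52). The remaining 3 were rtn4rl2b (4.80), a Nogo receptor-like gene, the fatty acid transporter gene slc27a2a (4.91) and rasgrf2a (4.83), a Ras exchange factor. The calls of those 3 and of tekt4 did not survive each left-out library: rtn4rl2b ended without LH replicates 1, 2, 3 or 4 or non-LH replicate 2 (adjusted p from 0.0562 to 0.0928), slc27a2a without LH replicates 1, 3 or 4 or non-LH replicates 1 or 4 (adjusted p from 0.0504 to 0.0828), rasgrf2a without LH replicates 1, 2 or 3 or non-LH replicate 1 (adjusted p from 0.0588 to 0.0698) and tekt4 without LH replicate 4 or non-LH replicates 1 or 4 (adjusted p from 0.0508 to 0.0598).

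In the other direction the 12 most lowered genes included those of red blood cells, of cell division and of hindbrain or midbrain patterning. The globin gene hbaa1 was at 15.9, 10.4, 16.3 and 8.14 CPM in LH and 309, 340.4, 482 and 479 CPM in non-LH. hbaa1 set the groups apart without overlap (log2 fold change -4.99 ± 0.28 SE, adjusted p = 6.53e-06). ba1l and ba1 fell by 5.10 and 5.03 on the log2 scale. Globin genes share near-identical stretches, so reads may be split between them. slc4a1a, the band 3 anion exchanger of red cells, and epb41b, a protein 4.1 gene of the red cell membrane skeleton, fell by 4.07 and 3.93. cep152, which builds centrioles, and ddx11, a DNA helicase of dividing cells, fell by 6.39 and 4.45, and nmt1b, an N-myristoyltransferase gene, by 6.88. neurog1, a proneural factor of early neuronal precursors, was at 0.879, 1.54, 0.497 and 1.95 CPM in LH and 12.8, 22.0, 14.2 and 12.8 CPM in non-LH. The groups of neurog1 did not overlap (log2 fold change -3.66 ± 0.51 SE, adjusted p = 0.00108). rbp4, which carries retinol, fell by 3.70, and of the midbrain-hindbrain boundary genes pax2b fell by 3.72 and pax5 fell by 3.59. Calls were lost for slc4a1a without LH replicates 2 or 3 (adjusted p from 0.0515 to 0.052), for cep152 without non-LH replicate 1 (adjusted p = 0.0506), for pax2b without LH replicates 1 or 4 or non-LH replicates 1, 2, 3 or 4 (adjusted p from 0.0519 to 0.0772) and for pax5 without LH replicates 2 or 4 or non-LH replicates 1, 2, 3 or 4 (adjusted p from 0.0788 to 0.102).

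The lowered genes with the smallest p were 3 globin genes, given above, and 5 genes of chromatin and homeobox proteins. hmgn2, a nucleosome-binding protein, was at 286, 295, 296 and 275 CPM in LH and 1075, 984, 855 and 971 CPM in non-LH. hmgn2 set the groups apart without overlap (log2 fold change -1.75 ± 0.08 SE, adjusted p = 2.30e-06). hmgb2b and hmgb2a, high mobility group proteins typical of dividing precursors, fell by 1.64 and 1.98 on the log2 scale. pax6a, a homeobox regulator of the dorsal forebrain, eye and hindbrain, was at 15.0, 15.8, 15.5 and 17.3 CPM in LH and 94.6, 99.5, 119 and 81.5 CPM in non-LH. The groups of pax6a did not overlap (log2 fold change -2.63 ± 0.16 SE, adjusted p = 9.51e-06). meis2a, a homeobox cofactor, was at 79.7 ± 10.8 CPM in LH and 314 ± 32.0 CPM in non-LH and fell by 1.98. These 5 genes had groups that did not overlap by the rule that picked them.

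**Figure D3:**
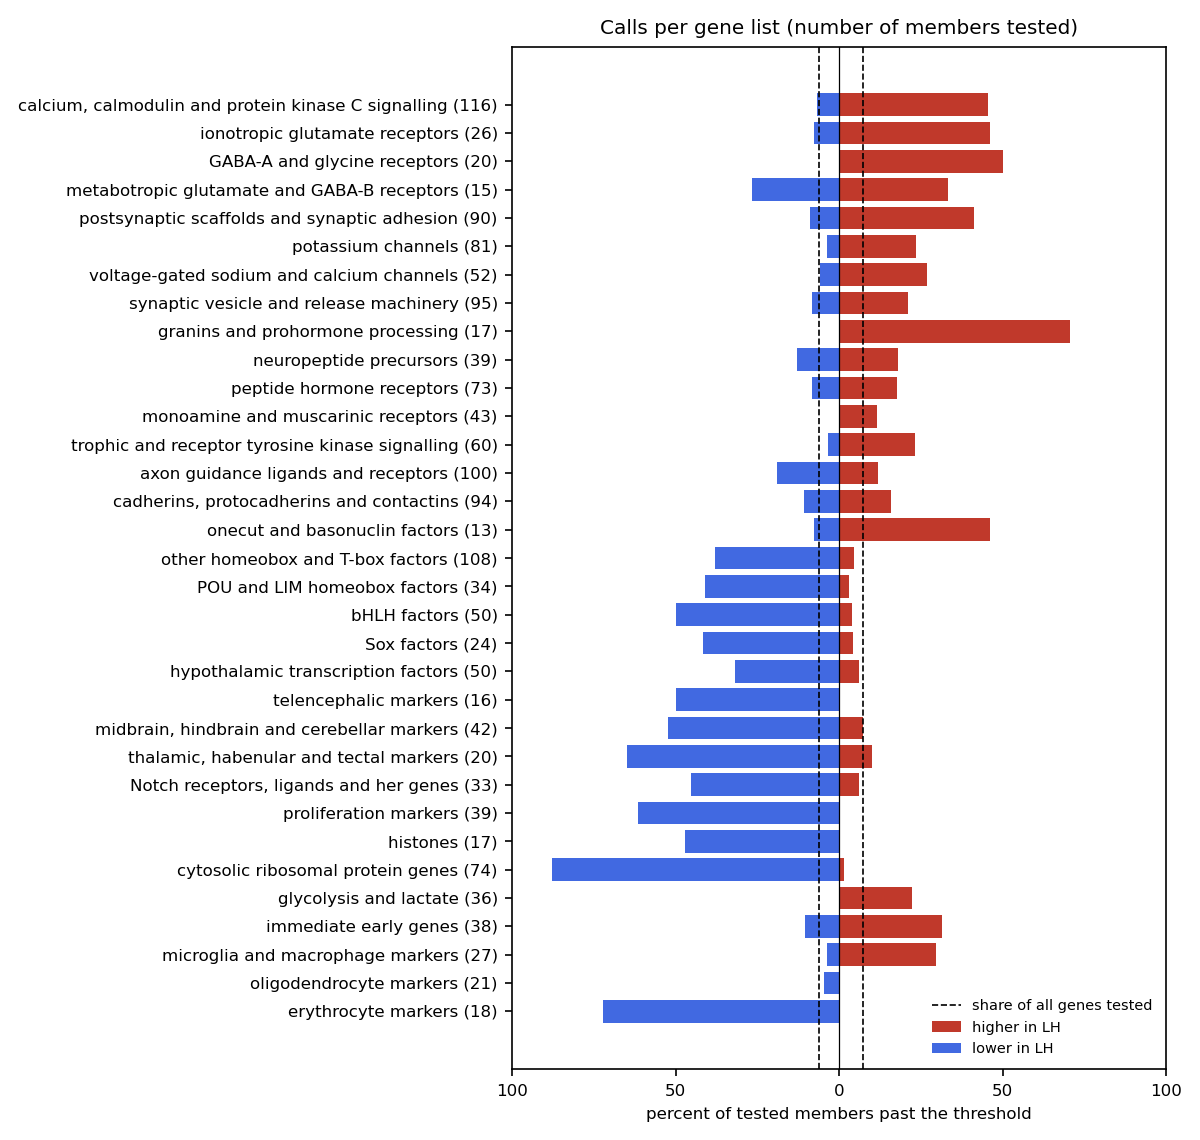
Percent of the tested members of 33 gene lists that passed the threshold, higher in LH to the right and lower to the left; dashed lines mark the shares over all genes tested (7.17% and 6.25%), and the number tested stands beside each name. Bars of the synaptic lists are longer to the right than to the left, and those of regional markers, proliferation and ribosomal proteins longer to the left.

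Genes of calcium, calmodulin and protein kinase C signalling, which turn calcium entry into phosphorylation, formed the list with the most rises by count. Of the 116 tested members 53 rose and 8 fell, with a median log2 fold change of 0.73. These shares are 45.7% and 6.90%, against 7.17% and 6.25% of all genes. By share other lists rose more often, among them granins and prohormone processing at 70.6% and GABA-A and glycine receptors at 50%. Beside camk2a and prkcbb, nrgna, which encodes the calmodulin buffer neurogranin of dendritic spines, was at 234, 215, 179 and 199 CPM in LH and 15.4, 13.6, 16.5 and 14.8 CPM in non-LH. The non-LH libraries were far below the lowest LH library (log2 fold change 3.77 ± 0.14 SE, adjusted p = 4.42e-07). ppp3ca, a catalytic subunit of the calcium-dependent phosphatase calcineurin, was at 275, 254, 268 and 254 CPM in LH and 83.7, 80.8, 77.6 and 82.1 CPM in non-LH. ppp3ca set the groups apart without overlap (log2 fold change 1.70 ± 0.09 SE, adjusted p = 3.50e-06). Calcium stores were among the risers through atp2a3, a reticular calcium pump, at 339.7 ± 18.8 CPM in LH and 42.8 ± 13.0 CPM in non-LH, and ryr3, a ryanodine receptor, at 50.3 ± 9.76 CPM in LH and 3.99 ± 2.85 CPM in non-LH; these genes were chosen after their values were seen. The calcium buffers calb2a and calb2b, which encode calretinin, went down together with the sodium-calcium exchanger gene slc8a2b: calb2a was at 7.56, 10.5, 5.52 and 3.57 CPM in LH and 26.9, 34.4, 18.2 and 23.4 CPM in non-LH. The groups of calb2a did not overlap (log2 fold change -1.92 ± 0.37 SE, adjusted p = 0.00675). slc8a2b fell by 1.21 and calb2b by 2.03. The count of falls was 5 without LH replicates 1 and 2, and slc8a2b was then no longer past the threshold (adjusted p = 0.0747).

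Ionotropic glutamate receptors, the channels of fast excitation, also rose more often than they fell. Of the 26 subunit genes, all tested, 12 rose and 2 fell, with a median log2 fold change of 0.66. grin1a, the obligatory subunit of NMDA receptors, was at 917, 863, 766 and 929 CPM in LH and 168, 174, 161 and 152 CPM in non-LH. grin1a set the groups apart without overlap (log2 fold change 2.41 ± 0.09 SE, adjusted p = 4.42e-07). Its duplicate grin1b was at 205, 164, 245 and 267 CPM in LH and 179.7, 165, 224 and 197 CPM in non-LH, with overlapping groups (log2 fold change 0.20, adjusted p = 0.509). The regulatory NMDA subunit gene grin2ab was at 132 ± 17.4 CPM in LH and 21.8 ± 4.50 CPM in non-LH and rose by 2.59. Its relative grin2bb was at 232 ± 26.1 CPM in LH and 59.2 ± 9.54 CPM in non-LH and rose by 1.97. gria2b, the AMPA receptor subunit that limits calcium entry, was at 768, 608, 641 and 697 CPM in LH and 130.2, 182, 172 and 204 CPM in non-LH. The groups of gria2b did not overlap (log2 fold change 1.98 ± 0.14 SE, adjusted p = 2.28e-05). The kainate receptor gene grik1a and the NMDA receptor gene grin3bb were the falls. grik1a was at 7.09, 6.43, 11.9 and 5.03 CPM in LH and 15.3, 30.8, 16.6 and 16.3 CPM in non-LH and its call ended without LH replicates 1, 2 or 4 or non-LH replicates 1, 2, 3 or 4 (adjusted p from 0.05 to 0.108). grin3bb was at 0 in each LH library and at 0.325, 1.04, 1.08 and 0.339 CPM in non-LH, a fall of at least 33.3-fold if LH is set to 3 counts in all, and its call ended without non-LH replicates 2 or 3 (adjusted p from 0.057 to 0.0588). The falls numbered 0 without non-LH replicates 2 or 3, and without LH replicates 1 and 2 together; 1 without LH replicates 1, 2 or 4 or non-LH replicates 1 or 4.

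**Figure D4:**
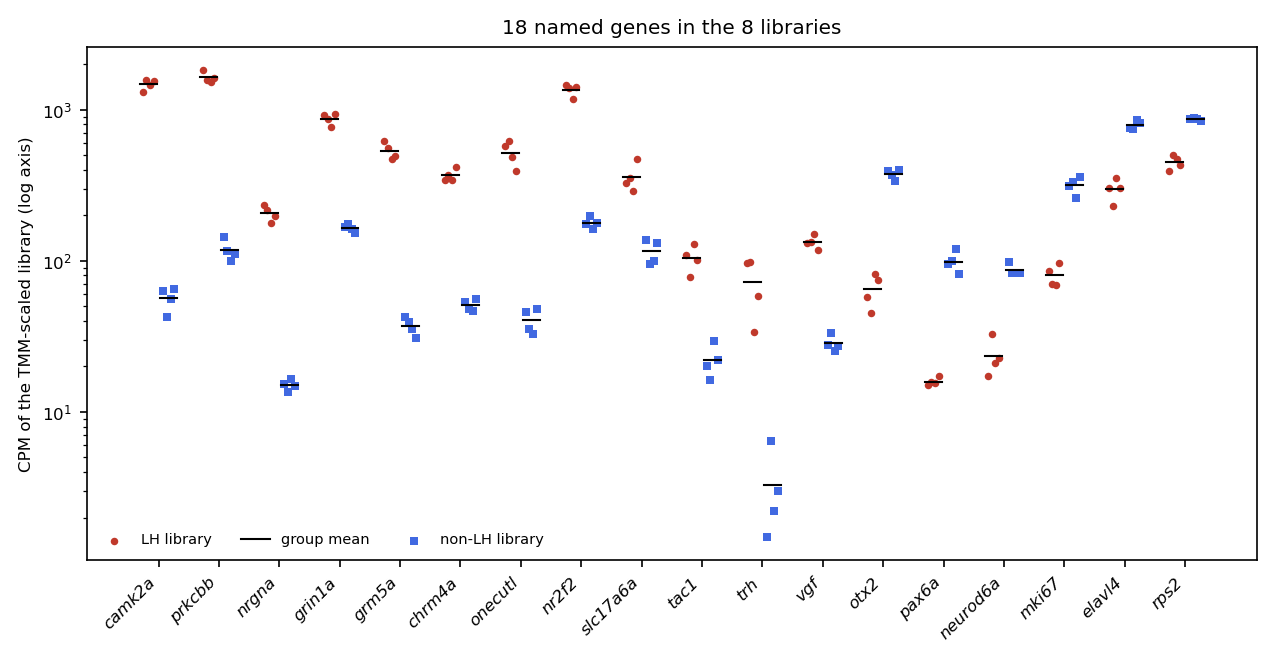
CPM of 18 named genes in each of the 8 libraries on a log axis (circles LH, squares non-LH, horizontal bars the group means). The groups are apart for each gene shown; camk2a has LH libraries from 1309 to 1571 CPM and non-LH libraries from 42.3 to 65.1 CPM.

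Behind the receptors, postsynaptic scaffolds and synaptic adhesion genes had 37 rises and 8 falls among 90 tested members (median log2 fold change 0.55). syngap1b, a Ras-inactivating protein of the postsynaptic density, was at 494, 563, 512 and 576 CPM in LH and 150.5, 167, 162 and 161 CPM in non-LH. syngap1b set the groups apart without overlap (log2 fold change 1.74 ± 0.09 SE, adjusted p = 2.30e-06). homer1b, which links metabotropic receptors to calcium stores, was at 295, 294, 347 and 323 CPM in LH and 70.7, 83.8, 65.8 and 74.2 CPM in non-LH. The groups of homer1b did not overlap (log2 fold change 2.095 ± 0.11 SE, adjusted p = 4.07e-06). iqsec2b, an exchange factor bound to NMDA receptor complexes, and baiap2a, which shapes actin in spines, rose by 2.67 and 3.09. dlg4, which encodes the scaffold PSD-95 and was named after its value was seen, was at 91.3 ± 10.1 CPM in LH and 28.5 ± 4.09 CPM in non-LH. Cerebellins are secreted organisers that join presynaptic neurexins to postsynaptic delta receptors, and cerebellin 2 genes were among the falls. cbln2b was at 21.13, 34.6, 20.1 and 18.3 CPM in LH and 81.5, 91.3, 90.5 and 81.2 CPM in non-LH. cbln2b set the groups apart without overlap (log2 fold change -1.87 ± 0.22 SE, adjusted p = 0.000371). cbln2a fell by 1.78, and a further cerebellin gene, not of the cerebellin 2 pair, by 1.81. The cerebellin 1 gene was higher in each LH library but not past the threshold (log2 fold change 0.35, adjusted p = 0.109). Neurexin 3 genes went opposite ways. nrxn3a was at 134, 85.9, 171 and 194 CPM in LH and 314, 419, 351 and 344 CPM in non-LH. The groups of nrxn3a did not overlap (log2 fold change -1.29 ± 0.22 SE, adjusted p = 0.00399). nrxn3b, named after its value was seen, rose by 1.53.

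Of inhibitory channel receptors 10 genes rose, whereas metabotropic receptors went both ways. Of 20 tested genes of GABA-A and glycine receptors, the chloride channels of fast inhibition, 10 rose and 0 fell (1 at an unadjusted p below 0.05 and 0 by DESeq2), with a median log2 fold change of 0.98. gabrd, the delta subunit of receptors outside synapses, was at 149, 165, 128 and 191 CPM in LH and 25.0, 52.4, 48.2 and 50.1 CPM in non-LH. gabrd set the groups apart without overlap (log2 fold change 1.85 ± 0.24 SE, adjusted p = 0.000673). gabra5 and gabrb4 rose by 1.25 and 0.79, and gabrb2 was at 149.8, 189.8, 176 and 232 CPM in LH and 110.0, 141, 149.9 and 159.5 CPM in non-LH with overlapping groups (adjusted p = 0.128). Without LH replicate 4, 6 of these genes passed. Metabotropic glutamate and GABA-B receptors, which act through G proteins, had 5 rises and 4 falls among 15 tested. grm5a, the group I receptor coupled to calcium release, was at 620.3, 558, 475 and 492 CPM in LH and 42.6, 39.4, 35.5 and 30.9 CPM in non-LH. The groups of grm5a did not overlap (log2 fold change 3.85 ± 0.14 SE, adjusted p = 4.42e-07). grm4 and gabbr1b rose by 1.17 and 0.90. The falls included gabbr1a, grm2a and grm8a, by 0.74, 1.18 and 1.00. Several of these calls did not hold when any of several single libraries was left out. That of gabbr1b ended without LH replicates 2, 3 or 4 or non-LH replicates 2, 3 or 4 (adjusted p from 0.0538 to 0.0774), that of grm2a without LH replicates 1, 2, 3 or 4 or non-LH replicates 1, 3 or 4 (adjusted p from 0.0525 to 0.0818) and that of grm8a without LH replicates 1 or 3 or non-LH replicates 1, 3 or 4 (adjusted p from 0.0528 to 0.081). The rises numbered 3 without LH replicates 3 or 4 or non-LH replicates 3 or 4, and the falls 0 without LH replicates 1 and 2 together, 1 without LH replicate 1 or non-LH replicates 1 or 3 and 2 without LH replicates 2, 3 or 4 or non-LH replicate 4.

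Channels that set excitability rose more often than they fell. Potassium channel genes had 19 rises and 3 falls among 81 tested (median log2 fold change 0.35), and voltage-gated sodium and calcium channel genes 14 and 3 among 52 (median 0.59). kcnf1b, a modulatory subunit, was at 52.3, 65.7, 102 and 58.9 CPM in LH and 13.8, 10.5, 9.85 and 10.4 CPM in non-LH. kcnf1b set the groups apart without overlap (log2 fold change 2.64 ± 0.25 SE, adjusted p = 0.000112). kcna4 and kcna1b, Kv1 channels of axons, rose by 1.66 and 1.83, whereas kcnc3a, a Kv3 channel of fast-spiking neurons, and kcnh7, an Erg-type channel, fell by 0.87 and 1.23. Among calcium channel genes the auxiliary subunits led: cacnb1 was at 419, 349, 401 and 396 CPM in LH and 117, 122, 97.9 and 148 CPM in non-LH. The groups of cacnb1 did not overlap (log2 fold change 1.69 ± 0.13 SE, adjusted p = 3.58e-05). cacng2b and cacng2a, which encode stargazins that carry AMPA receptors to the membrane, rose by 2.05 and 1.29. cacna2d4b, an auxiliary subunit gene, was lower in each LH library, at 9.50, 5.79, 9.06 and 10.3 CPM in LH and 42.1, 38.8, 52.9 and 68.2 CPM in non-LH. cacna2d4b set the groups apart without overlap (log2 fold change -2.54 ± 0.27 SE, adjusted p = 0.000228). cacna1g, a T-type channel of burst firing, fell by 1.69. That last call ended without LH replicate 1 or non-LH replicates 1 or 2 (adjusted p from 0.052 to 0.0535). The falls numbered 1 without LH replicate 1 or non-LH replicate 1 for sodium and calcium channels, and 5 without LH replicate 1, and without LH replicates 1 and 2 together for potassium channels.

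On the presynaptic side, 20 of 95 tested genes of vesicles and release rose and 8 fell. The duplicates of the membrane fusion protein SNAP-25 moved in opposite directions. snap25a was at 1998, 1683, 2030.4 and 1895 CPM in LH and 689.8, 679, 779 and 749 CPM in non-LH. The groups of snap25a did not overlap (log2 fold change 1.39 ± 0.08 SE, adjusted p = 7.98e-06). snap25b was at 263, 224, 441 and 249.7 CPM in LH and 756, 693, 905 and 686 CPM in non-LH. snap25b set the groups apart without overlap (log2 fold change -1.37 ± 0.20 SE, adjusted p = 0.0017). syt5b and vamp1, a synaptotagmin and a synaptobrevin of vesicles, rose by 3.44 and 2.54, and syt9b fell by 2.33. The falls numbered 4 without LH replicate 2 or non-LH replicates 1, 3 or 4 and 5 without LH replicate 1, and without LH replicates 1 and 2 together. Pan-neuronal markers went both ways, 9 of 29 tested higher and 6 lower. atp1a3a, the neuronal sodium pump, was at 1389.5, 1230.1, 1201 and 1505 CPM in LH and 667, 680.2, 664 and 723 CPM in non-LH. The groups of atp1a3a did not overlap (log2 fold change 0.96 ± 0.08 SE, adjusted p = 7.81e-05). map2, which stabilises dendritic microtubules, rose by 0.88. Among the pan-neuronal markers that fell were 3 genes of RNA-binding proteins: elavl3 was at 1761, 1792, 1747 and 1863 CPM in LH and 3020.4, 3056, 3020.5 and 2955 CPM in non-LH (log2 fold change -0.75 ± 0.05 SE, adjusted p = 1.61e-05), elavl4 fell by 1.41 and rbfox3a by 0.87.

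Genes that pack and process peptides were higher. Of 17 tested genes of granins and prohormone processing 12 rose and 0 fell (0 at an unadjusted p below 0.05 and 0 by DESeq2), with a median log2 fold change of 1.05. The count was 12 without any single library, but 1 with all 16 libraries in the model and 3 in a test against a fold of 2. vgf, a granin-like precursor tied to energy balance in mice, was at 131, 132, 151 and 119 CPM in LH and 27.7, 33.2, 25.3 and 27.4 CPM in non-LH. vgf set the groups apart without overlap (log2 fold change 2.23 ± 0.14 SE, adjusted p = 1.06e-05). scg2b, a secretogranin, was at 971, 747, 785 and 889 CPM in LH and 271, 249, 271 and 321 CPM in non-LH. The groups of scg2b did not overlap (log2 fold change 1.61 ± 0.11 SE, adjusted p = 1.89e-05). pcsk1nl, an inhibitor of prohormone convertase, and ptprnb, a dense core vesicle protein, rose by 1.29 and 1.41.

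Peptide precursors went both ways: 7 of 39 tested precursor genes rose and 5 fell, with a median of -0.92. tac1, which encodes substance P and neurokinin A, was at 109.7, 77.9, 129 and 101 CPM in LH and 20.2, 16.2, 29.2 and 22.2 CPM in non-LH. tac1 set the groups apart without overlap (log2 fold change 2.24 ± 0.22 SE, adjusted p = 0.000157). trh, thyrotropin-releasing hormone, was at 96.9, 98.8, 33.6 and 58.2 CPM in LH and 1.48, 6.42, 2.204 and 2.98 CPM in non-LH, with LH replicates 1 and 2 above 3 and 4 and all of them above non-LH (log2 fold change 4.46 ± 0.54 SE, adjusted p = 0.000478). Both enkephalin genes were higher without overlap. penkb was at 43.9, 38.7, 44.6 and 30.7 CPM in LH and 12.11, 10.3, 11.5 and 13.5 CPM in non-LH. The groups of penkb did not overlap (log2 fold change 1.74 ± 0.21 SE, adjusted p = 0.000447). penka, named after its value was seen, was at 100.5, 88.5, 197 and 119 CPM in LH and 30.1, 37.3, 13.3 and 24.1 CPM in non-LH. penka set the groups apart without overlap (log2 fold change 2.27 ± 0.35 SE, adjusted p = 0.00198). ccka, a cholecystokinin gene, rose by 1.95, while its duplicate cckb, named after its value was seen, fell by 2.62. The other rises were pdyn (1.28) and pyya (3.02), named after their values were seen and with groups that overlapped; pyya was at 50.5, 37.0, 1.77 and 28.9 CPM in LH, with replicate 3 at the non-LH level. The falls beside cckb were npb (-1.47), the somatostatin gene sst1.1 (-1.16), pomca and pth2 (-6.71). pomca, the precursor of melanocortins in satiety neurons of mammals, was at 1.23, 0.689, 0.279 and 0.128 CPM in LH and 2.32, 5.60, 5.42 and 6.06 CPM in non-LH. The groups of pomca did not overlap (log2 fold change -3.05 ± 0.87 SE, adjusted p = 0.045). Calls ended for cckb without LH replicates 3 or 4 or non-LH replicates 1, 2, 3 or 4 (adjusted p from 0.0849 to 0.112), for pomca without LH replicates 2, 3 or 4 or non-LH replicates 1, 2, 3 or 4 (adjusted p from 0.0561 to 0.117), for npb without LH replicates 1, 3 or 4 or non-LH replicates 1, 2 or 4 (adjusted p from 0.0581 to 0.104), for sst1.1 without LH replicates 2, 3 or 4 or non-LH replicates 1, 2, 3 or 4 (adjusted p from 0.0616 to 0.147), for pth2 without LH replicates 2, 3 or 4 or non-LH replicates 1, 2 or 3 (adjusted p from 0.057 to 0.12), for pdyn without LH replicates 1, 2 or 4 or non-LH replicates 1, 3 or 4 (adjusted p from 0.0544 to 0.0829) and for pyya without LH replicates 1, 2 or 4 or non-LH replicates 1, 2, 3 or 4 (adjusted p from 0.0594 to 0.102). The falls numbered 0 without non-LH replicate 2, 1 without LH replicate 4 or non-LH replicates 1 or 4, 2 without LH replicate 3 or non-LH replicate 3 and 8 without LH replicate 1, and without LH replicates 1 and 2 together. npy was at 4.81, 15.7, 9.53 and 6.99 CPM in LH and 14.5, 18.5, 22.5 and 28.9 CPM in non-LH with overlapping groups (adjusted p = 0.0809).

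Among receptors for peptides, 13 of 73 tested genes rose and 6 fell, 17.8% and 8.22% against 7.17% and 6.25% of all genes. calcrla, the calcitonin receptor-like receptor, was at 113, 101, 122 and 101 CPM in LH and 6.40, 14.3, 20.7 and 17.1 CPM in non-LH. calcrla set the groups apart without overlap (log2 fold change 2.90 ± 0.32 SE, adjusted p = 0.000266). sstr1a, a somatostatin receptor, was at 94.9, 81.9, 53.9 and 49.3 CPM in LH and 14.4, 14.2, 20.0 and 15.5 CPM in non-LH. The groups of sstr1a did not overlap (log2 fold change 2.13 ± 0.25 SE, adjusted p = 0.000435). adcyap1r1a, a receptor for PACAP, rose by 1.81. calcrlb, the duplicate of calcrla, was lower, at 0, 0, 0.186 and 0.103 CPM in LH and 2.78, 8.83, 6.88 and 5.40 CPM in non-LH. calcrlb set the groups apart without overlap (log2 fold change -6.32 ± 1.29 SE, adjusted p = 0.00964). The apelin receptor gene aplnra, found on vessels and precursors, fell by 2.30. The falls numbered 3 without LH replicate 1 or non-LH replicate 3. Of 43 monoamine and muscarinic receptor genes tested 5 rose and 0 fell (2 at an unadjusted p below 0.05 and 0 by DESeq2). The share of rises was 11.6% against 7.17% of all genes. chrm4a, an inhibitory muscarinic receptor, was at 343, 372, 341 and 418 CPM in LH and 53.0, 48.0, 46.8 and 55.5 CPM in non-LH. The groups of chrm4a did not overlap (log2 fold change 2.86 ± 0.11 SE, adjusted p = 4.42e-07). The other rises, as log2 fold changes, were hrh3 (2.60), a presynaptic histamine receptor, htr2cl1 (2.08), a serotonin 2C receptor-like gene, adra2b (2.44), and htr5ab (0.94), named after its value was seen. Of 8 nicotinic receptor genes tested 0 rose (1 at an unadjusted p below 0.05 and 1 by DESeq2) and 0 fell (1 at an unadjusted p below 0.05 and 1 by DESeq2); 1 rose without LH replicate 4 or non-LH replicate 3.

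In the growth hormone and IGF axis 3 of 33 tested genes rose and 0 fell (4 at an unadjusted p below 0.05 and 3 by DESeq2), and the 9.09% that rose is near the 7.17% of all genes. irs2b, which relays insulin and IGF receptor signals, was at 446, 488, 269 and 296 CPM in LH and 142, 139.9, 147 and 146 CPM in non-LH. irs2b set the groups apart without overlap (log2 fold change 1.38 ± 0.18 SE, adjusted p = 0.000874). ghrhrb, which encodes a receptor of the hypothalamic releasing hormone GHRH, was at 17.6, 15.09, 12.4 and 8.60 CPM in LH and 0.974, 0.298, 0.0881 and 2.79 CPM in non-LH. The groups of ghrhrb did not overlap (log2 fold change 3.69 ± 0.91 SE, adjusted p = 0.0239). igfbp5b, an IGF-binding protein, rose by 0.73. The growth hormone receptor gene ghra was at 6.54, 6.65, 13.1 and 11.2 CPM in LH and 4.36, 6.96, 5.24 and 2.04 CPM in non-LH, with overlapping groups (adjusted p = 0.219). Its duplicate ghrb was at 7.30, 3.64, 23.0 and 6.45 CPM in LH and 16.6, 11.0, 5.66 and 7.28 CPM in non-LH, also overlapping (adjusted p = 0.997). The call of ghrhrb ended without LH replicate 1 or non-LH replicates 1 or 2 (adjusted p from 0.0582 to 0.071) and that of igfbp5b without LH replicates 1, 3 or 4 or non-LH replicates 1, 2 or 4 (adjusted p from 0.0776 to 0.12), and the rises numbered 1 without non-LH replicate 1. The falls numbered 1 without LH replicate 3, and without LH replicates 1 and 2 together.

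Of 22 tested genes of the glutamate, GABA, glycine and acetylcholine phenotype 2 rose and 1 fell. These shares, 9.09% and 4.55%, are near the 7.17% and 6.25% of all genes. The falls of this list numbered 0 without LH replicate 1 or non-LH replicates 3 or 4 and 2 without LH replicate 3. slc17a6a, a vesicular glutamate transporter, was at 326, 355, 291 and 471 CPM in LH and 137, 95.4, 99.4 and 132 CPM in non-LH (log2 fold change 1.64 ± 0.18 SE, adjusted p = 0.000262), while slc17a6b was at 46.8, 55.5, 65.1 and 63.0 CPM in LH and 81.4, 70.6, 79.3 and 71.2 CPM in non-LH. The groups of slc17a6b did not overlap but its adjusted p was 0.118. The GABA-synthesising enzymes gad1b and gad2 had overlapping groups. gad1b was at 161 ± 51.8 CPM in LH and 109 ± 21.13 CPM in non-LH (adjusted p = 0.142), and gad2 at 199 ± 64.9 CPM in LH and 221 ± 30.3 CPM in non-LH (adjusted p = 0.749). Of 22 genes of monoamine synthesis and transport 3 fell and 0 rose (0 at an unadjusted p below 0.05 and 0 by DESeq2). tph1b, of serotonin synthesis, was at 0 in each LH library and at 1.23, 1.02, 4.61 and 2.87 CPM in non-LH, a fall of at least 117-fold (adjusted p = 0.00795). th2, a tyrosine hydroxylase gene, was at 0.117, 0, 0.434 and 0 CPM in LH and 10.7, 5.47, 5.38 and 5.25 CPM in non-LH. th2 set the groups apart without overlap (log2 fold change -5.59 ± 1.36 SE, adjusted p = 0.0228). comtb, which degrades catecholamines, fell by 2.45. The calls of th2 and comtb ended without LH replicate 1 or non-LH replicates 1, 2 or 4 (adjusted p from 0.0504 to 0.0724) and without LH replicates 1 or 4 or non-LH replicates 1, 3 or 4 (adjusted p from 0.0575 to 0.0971). The falls numbered 1 without LH replicate 1 or non-LH replicates 1 or 4 and 5 without LH replicate 4.

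Transcription factor families differed in their share of rises, against 7.17% of all genes. It was 46.2% for onecut and basonuclin factors and 9.32% for zinc finger and bZIP factors. In the other families it ran from 0% for Hox genes to 5.17% for nuclear receptors. Of 13 genes of the onecut, cux and basonuclin families 6 rose and 1 fell, cux1a (-0.93), whose call ended without non-LH replicates 2 or 4 (adjusted p from 0.0504 to 0.0531). bnc2, a zinc finger protein, was at 1335, 1346, 1084 and 1302 CPM in LH and 154, 148, 116 and 156 CPM in non-LH. The groups of bnc2 did not overlap (log2 fold change 3.14 ± 0.12 SE, adjusted p = 4.42e-07). onecutl, a onecut homeobox factor, was at 572, 618, 485 and 390.3 CPM in LH and 45.8, 35.4, 32.7 and 48.3 CPM in non-LH. onecutl set the groups apart without overlap (log2 fold change 3.67 ± 0.19 SE, adjusted p = 3.89e-06). onecut3b, bnc1, onecut3a and onecut1 rose by 2.34, 1.58, 2.19 and 3.09, of which onecut3a and onecut1 were named after their values were seen. The call of onecut3a ended without non-LH replicates 1, 3 or 4 (adjusted p from 0.0554 to 0.0573) and that of onecut1 without LH replicate 1 or non-LH replicate 1 (adjusted p from 0.0504 to 0.0564). shox2, a homeobox factor of thalamic neurons in mice, was at 580.0, 493, 459.7 and 415 CPM in LH and 60.0, 57.6, 61.0 and 59.8 CPM in non-LH. The groups of shox2 did not overlap (log2 fold change 3.03 ± 0.12 SE, adjusted p = 4.42e-07). its relative shox rose by 1.42. rx3, which specifies hypothalamic and retinal precursors in zebrafish, was at 18.6, 24.3, 23.1 and 56.9 CPM in LH and 4.69, 9.00, 2.91 and 6.84 CPM in non-LH, with LH replicate 4 above the others (log2 fold change 2.39 ± 0.46 SE, adjusted p = 0.00735). ebf3a, a helix-loop-helix factor of differentiating neurons, was at 1432, 1317, 1150.1 and 1228 CPM in LH and 647, 643, 491 and 601 CPM in non-LH. ebf3a set the groups apart without overlap (log2 fold change 1.11 ± 0.11 SE, adjusted p = 0.000122). sox4b, hlfb and nr2f6b rose by 1.53, 2.90 and 2.04.

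Other patterning factors, those of the hypothalamus included, fell more often than they rose, although the larger part did not pass the test. Of 108 further homeobox and T-box genes tested 5 rose and 41 fell, with a median log2 fold change of -1.49, and of 34 POU and LIM genes 1 and 14 (median -1.22). Of 50 hypothalamic transcription factors 3 rose, rx3, fezf1 and nkx2.4a, and 16 fell. lhx1a, of mammillary and other hypothalamic nuclei, was at 53.9, 44.3, 49.1 and 61.0 CPM in LH and 245, 249, 185 and 178 CPM in non-LH. The groups of lhx1a did not overlap (log2 fold change -2.04 ± 0.16 SE, adjusted p = 3.77e-05). lef1, a Wnt effector of posterior hypothalamic precursors, was at 34.5, 40.0, 82.4 and 51.5 CPM in LH and 249, 283, 229 and 276 CPM in non-LH. lef1 set the groups apart without overlap (log2 fold change -2.32 ± 0.25 SE, adjusted p = 0.000263). fezf1 and nkx2.4a rose by 1.53 and 1.19; their calls ended without LH replicates 1 or 4 or non-LH replicates 1, 3 or 4 (adjusted p from 0.0539 to 0.0583) and without LH replicates 1, 2, 3 or 4 or non-LH replicates 3 or 4 (adjusted p from 0.0609 to 0.103), and the rises numbered 1 without LH replicates 1 or 4 or non-LH replicates 3 or 4, and without LH replicates 1 and 2 together. Of the factors of other regions, 8 of 16 telencephalic, 22 of 42 midbrain, hindbrain and cerebellar, and 13 of 20 thalamic, habenular and tectal markers fell, against 6.25% of all genes, with 3 and 2 rises in the latter lists. Among telencephalic markers 0 rose (1 at an unadjusted p below 0.05 and 0 by DESeq2), and the rises numbered 1 without LH replicate 1 or non-LH replicates 1, 2, 3 or 4, and without LH replicates 1 and 2 together. The medians were -1.89, -2.07 and -1.95.

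Single genes show the size of these falls. eomesa, of the pallium, was at 20.9, 17.3, 23.3 and 15.6 CPM in LH and 58.9, 84.2, 79.3 and 83.8 CPM in non-LH. The groups of eomesa did not overlap (log2 fold change -1.99 ± 0.20 SE, adjusted p = 0.000143). gata3 and tal1 specify GABA neurons of the midbrain and hindbrain, and in both the groups lay apart. gata3 was at 36.1, 34.9, 74.7 and 35.6 CPM in LH and 299, 321, 237 and 246 CPM in non-LH. gata3 set the groups apart without overlap (log2 fold change -2.60 ± 0.26 SE, adjusted p = 0.000175). tal1 was at 59.1, 42.0, 64.5 and 46.4 CPM in LH and 274, 248, 231 and 247 CPM in non-LH. The groups of tal1 did not overlap (log2 fold change -2.24 ± 0.15 SE, adjusted p = 1.69e-05). otx2 was at 57.7, 45.2, 81.8 and 74.1 CPM in LH and 391, 368, 336 and 396 CPM in non-LH. otx2 set the groups apart without overlap (log2 fold change -2.53 ± 0.18 SE, adjusted p = 2.28e-05). irx1a and pou4f1 fell by 2.35 and 2.62. LH replicate 3 was the highest LH library in gata3 and otx2, still far below non-LH. The rises among midbrain, hindbrain and cerebellar markers included pvalb7 and egr2a (0.82), the call of egr2a ending without LH replicates 1, 3 or 4 or non-LH replicates 2 or 3 (adjusted p from 0.0623 to 0.0836). pvalb7, a parvalbumin, marks cerebellar Purkinje cells in zebrafish. pvalb7 was at 58.0, 49.9, 54.2 and 59.8 CPM in LH and 7.70, 9.00, 7.89 and 6.06 CPM in non-LH. The groups of pvalb7 did not overlap (log2 fold change 2.86 ± 0.20 SE, adjusted p = 1.72e-05). slc1a6, given above as a Purkinje cell marker of mammals, was higher too, at 56.5 to 126 CPM in LH and 0 to 4.34 CPM in non-LH. The Purkinje cell genes aldoca and ca8, named after their values were seen, had overlapping groups. aldoca was at 0, 0.248, 0.217 and 1.44 CPM in LH and 0.649, 1.09, 0.264 and 0.261 CPM in non-LH (adjusted p = 0.948), near 0 in both, and ca8 was at 32.5, 6.95, 24.8 and 20.3 CPM in LH and 2.88, 13.1, 23.2 and 24.5 CPM in non-LH (adjusted p = 0.775). The part of these cells in the results was not tested. The rises among thalamic, habenular and tectal markers were tcf7l2 (1.205) and kctd12.2 (1.31), and numbered 1 without LH replicates 1 and 2 together. Hox genes had 3 falls of 16 tested, and 6 without LH replicates 1 and 2 together, while 0 rose (0 at an unadjusted p below 0.05 and 0 by DESeq2).

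**Figure D5:**
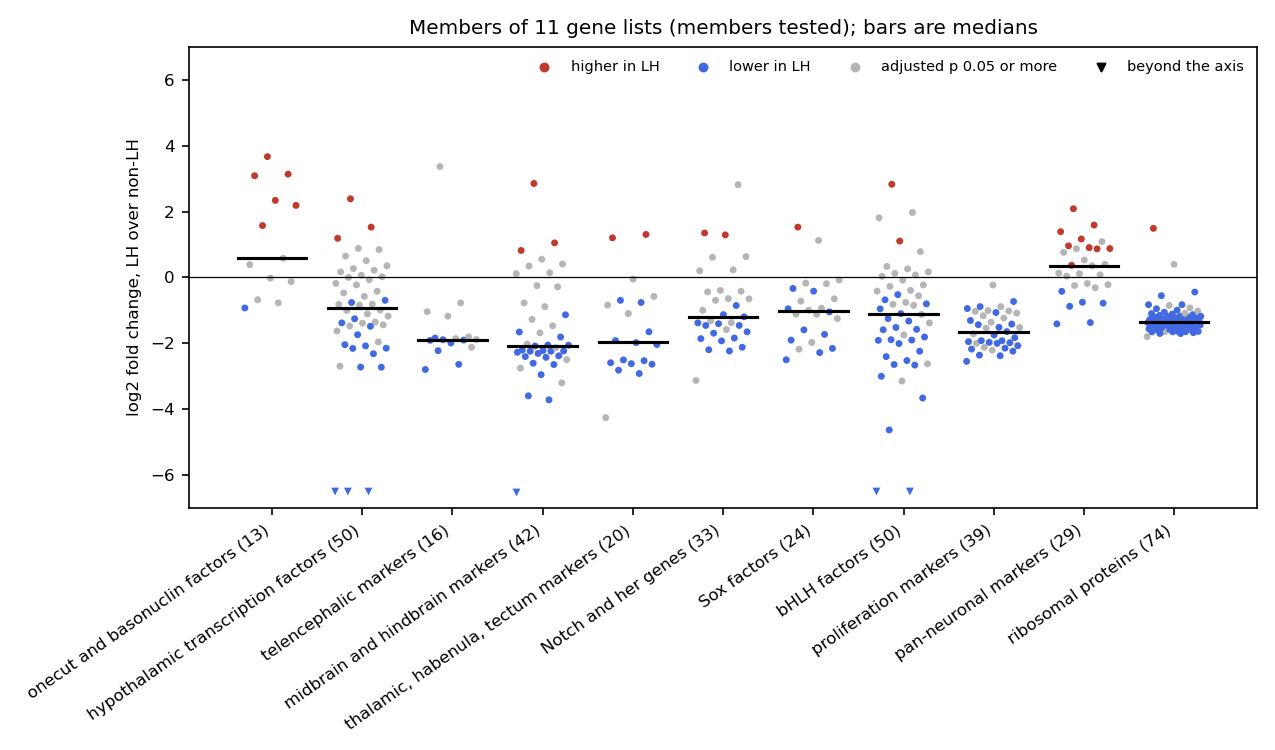
Log2 fold change of each tested member of 11 gene lists (points; red higher, blue lower, grey not past the threshold; triangles lie beyond the axis) with the list medians as bars and the number tested beside each name. Onecut and basonuclin factors have points on both sides of 0, with a median of 0.59 and 6 of the 7 called members above 0, whereas ribosomal protein genes cluster around their median of -1.35 and regional markers of the telencephalon, thalamus and hindbrain around -1.89 to -2.07.

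Axon guidance genes went both ways, 12 of 100 tested up and 19 down, as did 15 and 10 of 94 cadherins, protocadherins and contactins. robo1, a receptor for the midline repellent Slit, was at 553, 598, 438 and 539 CPM in LH and 151, 147, 159.8 and 207 CPM in non-LH. robo1 set the groups apart without overlap (log2 fold change 1.68 ± 0.14 SE, adjusted p = 4.75e-05). epha7, an Eph receptor, was at 188, 214, 171 and 190.5 CPM in LH and 39.4, 51.5, 60.0 and 51.1 CPM in non-LH. The groups of epha7 did not overlap (log2 fold change 1.92 ± 0.15 SE, adjusted p = 3.24e-05). unc5db, a netrin receptor, rose by 2.69. The semaphorin receptor genes nrp1a and nrp2b moved in opposite directions, without overlap. nrp1a was at 63.1, 57.4, 120.3 and 84.7 CPM in LH and 238, 279, 216 and 287 CPM in non-LH. nrp1a set the groups apart without overlap (log2 fold change -1.65 ± 0.23 SE, adjusted p = 0.00103). nrp2b was at 329, 415, 367 and 369 CPM in LH and 145, 175, 95.2 and 156 CPM in non-LH. The groups of nrp2b did not overlap (log2 fold change 1.37 ± 0.17 SE, adjusted p = 0.000625). Among adhesion genes pcdh1b was at 225, 239.8, 169 and 207 CPM in LH and 45.8, 53.2, 45.4 and 50.7 CPM in non-LH. pcdh1b set the groups apart without overlap (log2 fold change 2.11 ± 0.13 SE, adjusted p = 1.15e-05). cdh4 rose by 1.81, whereas cdh6 and cdh8 fell by 1.66 and 1.34.

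Genes of trophic and receptor tyrosine kinase signalling, ligands and receptors together, rose more often than they fell, 14 against 2 of 60 tested, the falls numbering 1 without LH replicate 1 or non-LH replicates 3 or 4 and 5 without LH replicates 1 and 2 together. ntrk2a, a receptor for brain-derived neurotrophic factor, was at 249.7, 219, 212 and 297 CPM in LH and 66.8, 69.9, 77.6 and 94.1 CPM in non-LH. The groups of ntrk2a did not overlap (log2 fold change 1.67 ± 0.15 SE, adjusted p = 9.12e-05). bdnf itself, named after its value was seen, was at 85.8 ± 20.0 CPM in LH and 35.5 ± 11.3 CPM in non-LH (log2 fold change 1.27, and adjusted p = 0.092 without LH replicates 1 and 2). Of the fibroblast growth factor receptor genes fgfr3 rose by 0.94, and the falls were fgfr4 and fgfr1b, by 1.49 and 1.05. The call of fgfr1b ended without LH replicates 1, 3 or 4 or non-LH replicates 1, 3 or 4 (adjusted p from 0.0573 to 0.0933). Downstream, regulators of small GTPases had 30 rises and 14 falls among 137 tested, and MAP kinase and phosphatase genes 22 and 4 among 154. sipa1l1, a Rap regulator of spines, was at 136, 90.8, 141 and 131 CPM in LH and 20.8, 14.1, 20.3 and 23.0 CPM in non-LH. sipa1l1 set the groups apart without overlap (log2 fold change 2.67 ± 0.21 SE, adjusted p = 3.63e-05). map2k1, the kinase MEK1, was at 395, 368, 425 and 378 CPM in LH and 103, 74.3, 117 and 79.2 CPM in non-LH. The groups of map2k1 did not overlap (log2 fold change 2.07 ± 0.15 SE, adjusted p = 2.75e-05). Rises of the GTPase regulators numbered 18 without non-LH replicate 4, and without LH replicates 1 and 2 together; 19 without LH replicate 2, and the falls 8 without non-LH replicate 4 and 9 without LH replicate 4. MAP kinase rises numbered 13 without LH replicates 1 and 2 together. Cyclic nucleotide signalling genes had 9 rises and 2 falls of 51 tested, 17.6% and 3.92% against 7.17% and 6.25% of all genes. prkg1l, a cGMP-dependent kinase gene, was at 117, 104, 105 and 94.5 CPM in LH and 7.14, 6.72, 3.83 and 8.77 CPM in non-LH. prkg1l set the groups apart without overlap (log2 fold change 3.99 ± 0.26 SE, adjusted p = 1.24e-05). the cGMP phosphodiesterase gene pde9a rose by 3.04. The adenylate cyclase gene adcy2a fell by 1.35. That call ended without LH replicates 1, 2 or 4 or non-LH replicates 3 or 4 (adjusted p from 0.0526 to 0.0764). Its duplicate with the ending b went the other way, at 129 ± 32.9 CPM in LH and 26.3 ± 7.73 CPM in non-LH. That duplicate rose by 2.30 (adjusted p = 0.000266). Falls of the cyclic nucleotide list numbered 0 without LH replicates 1 and 2 together. They numbered 1 without LH replicates 1 or 2 or non-LH replicates 1, 2, 3 or 4.

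Proliferation markers and Notch, Sox and bHLH genes fell more often than they rose. These lists include genes of precursor cells, but the bHLH list also holds factors of differentiating neurons such as ebf3a. Of 39 proliferation markers tested 24 fell and 0 rose (0 at an unadjusted p below 0.05 and 0 by DESeq2) (median log2 fold change -1.64), and the list took 0.357% to 0.453% of the counts in LH and 0.736% to 0.815% in non-LH. mki67, a marker of cycling cells, was at 85.9, 70.0, 68.7 and 97.1 CPM in LH and 312, 331, 260.1 and 358 CPM in non-LH. The groups of mki67 did not overlap (log2 fold change -1.97 ± 0.15 SE, adjusted p = 3.11e-05). rrm2, which makes nucleotides for DNA synthesis, was at 30.8, 36.3, 44.7 and 40.3 CPM in LH and 147, 135, 115 and 143 CPM in non-LH. rrm2 set the groups apart without overlap (log2 fold change -1.83 ± 0.15 SE, adjusted p = 5.10e-05). Notch pathway genes had 15 falls of 33, Sox factors 10 of 24, and bHLH factors 25 of 50. The rises were 2, 1 and 2, those of the Notch list numbering 0 without non-LH replicates 1 or 3 and 1 without LH replicates 3 or 4 or non-LH replicate 2. her15.1, a Notch target of radial glia, was at 69.6, 81.9, 78.8 and 75.9 CPM in LH and 411, 400.1, 251 and 268 CPM in non-LH (log2 fold change -2.12 ± 0.18 SE, adjusted p = 5.20e-05); copies of her genes are near-identical and their counts uncertain. lfng, which modifies Notch, was at 109.8 ± 20.4 CPM in LH and 301 ± 49.5 CPM in non-LH and fell by 1.46. sox19a and sox6, of neural precursors, fell by 1.73 and 2.28, and neurod6a, of differentiating pallial neurons, by 1.89. Among histones 8 of 17 fell and 0 rose (0 at an unadjusted p below 0.05 and 0 by DESeq2), with h3f3b.1, a replacement histone H3.3, at 119 ± 15.2 CPM in LH and 286 ± 19.4 CPM in non-LH.

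Cytosolic ribosomal protein genes had the largest share of falls of the 69 lists, with 65 of 74 tested members lower, 1 higher and a median log2 fold change of -1.35. Together they took 0.612% to 0.804% of the counts in LH and 1.39% to 1.67% in non-LH. rps2 was at 390.3, 499, 470.4 and 432 CPM in LH and 863, 887, 871 and 839.6 CPM in non-LH. The groups of rps2 did not overlap (log2 fold change -0.95 ± 0.09 SE, adjusted p = 9.00e-05). rpsa was at 385, 450.1, 497 and 508 CPM in LH and 977, 1075, 932 and 948 CPM in non-LH. rpsa set the groups apart without overlap (log2 fold change -1.095 ± 0.10 SE, adjusted p = 9.00e-05). The rises numbered 0 without LH replicate 4 or non-LH replicates 1 or 2, and without LH replicates 1 and 2 together. The handling of reads with several alignments is not given, so single values of genes with similar copies are uncertain. Of 75 translation factors 6 rose and 13 fell, 8% and 17.3% against 7.17% and 6.25% of all genes. The share of rises was thus near that of all genes. eef1b2 was lower by 1.27 and eef1a1l2 higher by 1.88. Of 50 proteasome genes 9 (18%) fell, and of 92 nuclear genes of oxidative phosphorylation 11 (12.0%) fell and 3 (3.26%) rose. These counts were less stable: proteasome falls numbered 5 without LH replicate 3 or non-LH replicates 1 or 4. Oxidative phosphorylation falls numbered 5 without LH replicate 3 or non-LH replicates 2 or 4, 6 without LH replicate 4 and 7 without LH replicate 1, and rises 1 without LH replicates 1 or 2 or non-LH replicates 1, 2 or 4, and without LH replicates 1 and 2 together. Glycolysis genes had 8 rises of 36 and 0 fell (1 at an unadjusted p below 0.05 and 0 by DESeq2). pgk1, an ATP-forming step, was at 608, 601, 536 and 544 CPM in LH and 281, 321, 354 and 306 CPM in non-LH. The groups of pgk1 did not overlap (log2 fold change 0.86 ± 0.09 SE, adjusted p = 0.000234). pkma and gapdhs rose by 0.85 and 0.47.

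Activity-regulated genes, which neurons switch on within minutes of firing or of handling, had 12 rises and 4 falls among 38 tested immediate early genes. These shares are 31.6% and 10.5%, against 7.17% and 6.25% of all genes. egr4 was at 1820.1, 1529, 1096 and 1337 CPM in LH and 644, 705, 687 and 732 CPM in non-LH. egr4 set the groups apart without overlap (log2 fold change 1.06 ± 0.14 SE, adjusted p = 0.000711). egr3 rose by 1.57. npas4b was at 602, 576, 202 and 211 CPM in LH and 82.1, 67.7, 40.6 and 33.1 CPM in non-LH (log2 fold change 2.83 ± 0.45 SE, adjusted p = 0.00235), with replicates 1 and 2 above 3 and 4 in both groups. fosab, the Fos gene, was at 3129.6, 2655, 2388 and 2507 CPM in LH and 2084, 2229, 2099 and 1946 CPM in non-LH. The groups of fosab did not overlap (log2 fold change 0.35 ± 0.09 SE, adjusted p = 0.0251). its call ended without LH replicate 2 or non-LH replicates 1, 3 or 4 (adjusted p from 0.0536 to 0.0771). npas4a was at 2057, 2576, 1958 and 2518 CPM in LH and 2104, 2047, 1432 and 1628 CPM in non-LH with overlapping groups (adjusted p = 0.159). The rises numbered 5 without LH replicates 1 and 2 together, 6 without non-LH replicate 4 and 7 without LH replicate 2 or non-LH replicates 2 or 3, and the falls 2 without non-LH replicates 1, 2 or 4. Heat shock and chaperone genes had 5 rises and 4 falls of 90, shares of 5.56% and 4.44% that are near those of all genes; the rises numbered 2 without LH replicates 1 and 2 together, 3 without LH replicates 1 or 2 or non-LH replicate 1 and 8 without LH replicate 3, and the falls 2 without LH replicates 1 or 2 or non-LH replicates 1, 2 or 4, and without LH replicates 1 and 2 together. The stress-induced hsp70l was at 1417, 1493, 589.8 and 843 CPM in LH and 758, 746, 363 and 561 CPM in non-LH, with overlapping groups (adjusted p = 0.119).

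Among markers of other cell types, erythrocyte genes fell in 13 of 18 tested members and 0 rose (0 at an unadjusted p below 0.05 and 0 by DESeq2), with a median log2 fold change of -4.37. Microglia and macrophage genes had 8 rises and 1 fall of 27: lgals3bpb was at 1151, 1029.7, 2326 and 1352 CPM in LH and 668, 625, 731 and 599 CPM in non-LH (log2 fold change 1.16 ± 0.23 SE, adjusted p = 0.00767), highest in LH replicate 3. The fall was mrc1a, a mannose receptor gene that in zebrafish also marks lymphatic endothelial cells of the brain surface, at 8.68, 2.15, 12.4 and 26.9 CPM in LH and 109, 107, 113 and 118 CPM in non-LH. mrc1a set the groups apart without overlap (log2 fold change -3.16 ± 0.59 SE, adjusted p = 0.00593). The rises numbered 2 without non-LH replicate 2, 3 without LH replicate 3 or non-LH replicates 1 or 4, 4 without LH replicate 4 and 13 without LH replicates 1 and 2 together. Oligodendrocyte genes had 1 fall, cnp (0.41 on the log2 scale), among 21 tested; the falls numbered 3 without LH replicate 4, 5 without LH replicate 2 and 13 without LH replicates 1 and 2 together. Radial glia and astroglia genes had 3 rises and 6 falls of 27. These shares are 11.1% and 22.2%, against 7.17% and 6.25% of all genes. Lists can share members, and 1 of these rises is also counted in the microglia and macrophage list. Of the rises, slc1a3b, a glial glutamate transporter, was at 229, 264, 200.3 and 177 CPM in LH and 57.4, 68.4, 82.7 and 113 CPM in non-LH. The groups of slc1a3b did not overlap (log2 fold change 1.44 ± 0.21 SE, adjusted p = 0.00161). slc1a2b was at 1808, 1929.7, 1476 and 1362 CPM in LH and 609, 686, 1943 and 1866 CPM in non-LH with overlapping groups (adjusted p = 0.625). The lists of endothelial and mural, meningeal, ependymal, lymphoid, photoreceptor and pineal, and pituitary genes had at most 2 genes past the threshold in either direction, and at most 5 with 1 library left out. Nonvisual opsins, light sensors of deep brain cells, had 1 rise and 2 falls among 16 tested, shares of 6.25% and 12.5% against 7.17% and 6.25% of all genes. opn8b was at 74.0, 38.5, 58.5 and 49.9 CPM in LH and 0.789, 3.83, 8.11 and 2.95 CPM in non-LH. opn8b set the groups apart without overlap (log2 fold change 3.81 ± 0.60 SE, adjusted p = 0.00225). Of the falls, opn7c was at 0 in each LH library and at 1.99, 2.19, 4.58 and 10.8 CPM in non-LH (adjusted p = 0.0043). The falls numbered 1 without LH replicates 1 or 2 or non-LH replicates 1, 2 or 3, and without LH replicates 1 and 2 together.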

How the data were processed

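Poly(A) RNA of sorted cells was sequenced with a modified SMARTSeq v2 protocol, per the labels' protocols: 0.5 ng of total RNA, 16 amplification cycles and 200 pg of cDNA per Nextera XT reaction. The authors deposited raw counts per gene, and FastQC, STAR and the GRCz11 build appear in the submitters' processing notes; the read counter, strand setting and treatment of reads with several alignments are not given in the sources used here. The table held 47038 rows; 9 without a gene name or count and 9670 tRNA rows, which took 0.0350% to 0.0666% of the counts, were left out. Endings _1, _2 and so on were stripped and counts summed per symbol, giving 30482 symbols, 5880 of them from more than 1 row. No 2 libraries held identical values.

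The 8 libraries were fitted with edgeR 4.0.16 in R 4.3.3 (TMM factors, filterByExpr with a minimum count of 10 and a total of 15, robust quasi-likelihood F test, two-sided, Benjamini-Hochberg adjustment over 18640 genes, threshold 0.05). Standard errors were derived from each log2 fold change and its F statistic. A fold against a group at 0 is a bound from 3 counts over the group. Reads carried no molecular identifiers, so the bounds cover counting error only. DESeq2 1.42.0, other scalings and filters, a block of replicate numbers and left-out libraries were alternatives. The fit was tested on simulated data.

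The comparison and its 69 gene lists were chosen with earlier results of these data known, so lists are described by counts and medians and not tested. Named genes were the 12 most raised and 12 most lowered and the 8 with the smallest p in each direction (groups not overlapping, at least 10 CPM in the higher group), up to 4 past the threshold in each direction and 2 not past it per list, and a set of fixed peptide, receptor and transmitter genes; those outside the rule are marked. Results for some genes are not reported here. Of the 217 named genes 30 sum more than 1 row. No sequences are printed, and rows of the reporter genes were not used here.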

Additional observations from a re-analysis of the deposited data

Results flagged for a closer look

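Among the 217 named genes, 25 of 434 groups of 4 libraries held 1 library set apart from the other 3 by Dixon's criterion; chance gives about 1 in 20. The value of that library is given against the range of the other 3 libraries of its group. LH replicate 1 stood apart for nmt1b 0.528 CPM against 0 and pth2 0.205 CPM against 0. LH replicate 2 stood apart for cep152 0.524 CPM against 0, grm2a 10.8 CPM against 14.6 to 15.0 and htr5ab 22.2 CPM against 26.3 to 26.9. LH replicate 3 stood apart for bnc2 1084 CPM against 1302 to 1346, celf2 334 CPM against 369.7 to 372 and gata3 74.7 CPM against 34.9 to 36.1. LH replicate 4 stood apart for nr2f6b 26.3 CPM against 37.8 to 39.6, rx3 56.9 CPM against 18.6 to 24.3 and slc1a6 126 CPM against 56.5 to 65.3. non-LH replicate 1 stood apart for gabrd 25.0 CPM against 48.1 to 52.4, kcnf1b 13.8 CPM against 9.85 to 10.5 and neurod6a 98.7 CPM against 82.4 to 82.9. It also stood apart for pomca 2.32 CPM against 5.42 to 6.06 and th2 10.7 CPM against 5.25 to 5.47. non-LH replicate 2 stood apart for ddx11 2.09 CPM against 14.2 to 16.6, grik1a 30.8 CPM against 15.3 to 16.6 and neurog1 22.0 CPM against 12.8 to 14.2. It also stood apart for onecut3a 14.1 CPM against 3.71 to 4.54. non-LH replicate 3 stood apart for adcy2a 59.7 CPM against 26.3 to 30.5, ces2 0.485 CPM against 0 and slc1a6 4.34 CPM against 0 to 0.274. non-LH replicate 4 stood apart for cdh8 168 CPM against 158 to 159 and kcnh7 34.9 CPM against 50.2 to 52.7.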

How the results depend on the processing

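Counting genes past the threshold gave 2502 in the 8-library model. It gave 338 (123 higher, 215 lower) with all 16 libraries in the model and 527 (299 higher, 228 lower) in a test against a fold of 2; all other settings stayed within 1.5 times. Leaving out each library in turn gave 1879 to 2291 genes, 1031 to 1200 higher and 816 to 1146 lower. Without LH replicates 1 and 2, a setting chosen after seeing the data, 2166 passed. With total counts in place of TMM factors 48.0% of the calls were higher against 53.4%. DESeq2 called 3604 genes, 2484 of them shared. Of the 203 named genes past the threshold 71 passed with 16 libraries, 114 in the test against a fold of 2, 202 by DESeq2 and 169 with each library left out in turn. Without LH replicates 1 and 2 together 170 passed; bdnf, ces2, cnp, gabbr1a, gabra5, kctd12.2, msgn1, slc8a2b and vasnb were lost in that setting and with no single library left out. The replicate numbers do not pair the libraries in the labels, and correlations of same-numbered deviations were 0.001 to 0.046, with 2 of the 4 LH libraries closest to their own number; the replicate block gave 1975 genes, 1851 shared. Among genes not past the threshold, the log2 fold change turned positive in 3: aldoca ranged from -1.86 to 0.26 with 1 library left out and was 0.54 without LH replicates 1 and 2, gad2 was 0.17 without LH replicates 1 and 2, ghrb ranged from -0.80 to 0.32 with 1 library left out and was 0.0012 with a filter of at least 1 CPM in 4 libraries and 0.54 without LH replicates 1 and 2. The cause of these shifts was not tested, and leaving out libraries also lowers their number. On simulated counts 2 of 49 genes changed 1.5-fold and 11 of 50 changed 2-fold were recovered. Of those changed 4-fold and 8-fold, 28 of 50 and 30 of 50 were recovered, so changes of each of these sizes were missed there. No other of the 17871 genes in that fit was changed, a smaller share than the share called in the data. Adjustment over all genes is stricter where fewer genes change, so these rates need not hold for the data.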

Other observations

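Genes of the cytoskeleton went both ways. Of 101 tubulin and microtubule-associated genes 19 rose and 20 fell, the falls numbering 12 without non-LH replicate 2 and 13 without non-LH replicate 1. map6d1, which stabilises microtubules, was at 74.1, 64.0, 58.3 and 76.3 CPM in LH and 7.49, 3.01, 7.78 and 5.06 CPM in non-LH. The groups of map6d1 did not overlap (log2 fold change 3.54 ± 0.31 SE, adjusted p = 7.82e-05). kif1aa, the motor of synaptic vesicle precursors, and map1aa, of dendrites, rose by 1.07 and 1.01. The mitotic motor gene kif11 was at 15.6, 18.3, 40.2 and 37.9 CPM in LH and 141, 178, 153 and 181 CPM in non-LH. kif11 set the groups apart without overlap (log2 fold change -2.55 ± 0.31 SE, adjusted p = 0.00052). tuba8l fell by 1.295. RNA-binding proteins of neurons had 4 rises and 14 falls of 68, the falls numbering 9 without non-LH replicate 4: the splicing regulator genes celf2 and rbfox1 rose by 0.85 and 0.87. gng13b, a G protein gamma subunit gene, was at 179, 152, 189.7 and 178 CPM in LH and 42.5, 40.8, 37.6 and 31.9 CPM in non-LH. The groups of gng13b did not overlap (log2 fold change 2.19 ± 0.13 SE, adjusted p = 9.51e-06). trpc5a, a calcium-permeable TRP channel gene, was at 32.9, 20.4, 20.9 and 24.4 CPM in LH and 3.25, 2.04, 0.793 and 3.34 CPM in non-LH. trpc5a set the groups apart without overlap (log2 fold change 3.39 ± 0.46 SE, adjusted p = 0.00103). Among zinc finger and bZIP factors, 11 rises and 27 falls of 118, klf12b and zfhx3 rose by 1.80 and 0.92, and nfixb fell by 2.05; the rises numbered 7 without LH replicate 1, and without LH replicates 1 and 2 together. The orphan receptor genes rorb and roraa, of the clock and of sensory pathways, fell by 2.04 and 1.14.

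Zebrafish keep many genes as duplicates with the endings a and b. Pairs were counted only where a digit stands before the ending, so calcrla with calcrlb and ccka with cckb, for example, are not among them. Of 1384 pairs so counted with both members tested, 45 had both members higher in LH and 38 had both lower. Calls went in opposite directions in 23 of these pairs. In 223 and 154 pairs 1 member alone was higher or lower, and 901 pairs had neither past the threshold. Over all genes tested 7.17% were higher and 6.25% lower, and the pair counts were not tested against these shares. The pairs with opposite calls included snap25, nrxn3 and gabbr1, of which members are described with their groups. Near-identical copies may share reads, and the handling of reads with several alignments is not given in the sources used here.

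Some genes were higher in replicates 1 and 2 than in 3 and 4 of both groups, though the same numbers are not tied to a shared batch by the labels. npas4b was at 602, 576, 202 and 211 CPM in LH and 82.1, 67.7, 40.6 and 33.1 CPM in non-LH. The heat shock gene hsp70l was at 1417, 1493, 589.8 and 843 CPM in LH and 758, 746, 363 and 561 CPM in non-LH. slc1a2b was instead lower in non-LH replicates 1 and 2 than in 3 and 4, and higher in LH replicates 1 and 2, at 1808, 1929.7, 1476 and 1362 CPM in LH and 609, 686, 1943 and 1866 CPM in non-LH.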
